A study of Homo sapiens with 21 samples.

Results

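The 10 genes described here are transcriptional outputs of the ERK pathway, and most of them feed back on it: the phosphatase genes DUSP4, DUSP5 and DUSP6, the Sprouty genes SPRY2 and SPRY4, the transcription factor genes EGR1, FOS, ETV4 and ETV5, and PHLDA1. They were taken by symbol from the array annotation, 1 probe set per gene, and are 10 of the 18132 genes measured. Expression was read on 21 PrimeView arrays from SH-SY5Y, a human neuroblastoma line that can be differentiated towards neurons. In every group differentiation ran for 3 to 4 days in retinoic acid at 10 µM with BDNF at 50 ng/mL. A compound or vehicle followed for 72 h at a final 0.1% DMSO, and 25 ng of total RNA was amplified per array. There were 7 groups of 3 arrays. The line carrying the APP-V717F mutation received AG494, NOSCA or DMSO (APP_AG494, APP_NOSCA and APP_DMSO). The wild-type line received AG494, NOSCA, PALBO or DMSO (WT_AG494, WT_NOSCA, WT_PALBO and WT_DMSO). The mutation alters the precursor of amyloid beta and is linked to inherited Alzheimer's disease. The labels describe 1 mutated line, so that a difference between the genotypes is also a difference between these lines. AG494 blocks the tyrosine kinase of the EGF receptor. The names NOSCA and PALBO are given as in the labels, which state no doses, so that compounds are set side by side at unknown doses.

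In the ERK pathway, receptor tyrosine kinases activate RAS, and RAF and MEK kinases then pass the signal to ERK, which phosphorylates transcription factors. Immediate early genes such as EGR1 and FOS answer within minutes, and negative regulators follow: dual-specificity phosphatases take phosphate off ERK, and Sprouty proteins act on the steps between receptor and RAF. Retinoic acid and BDNF, whose receptor is a tyrosine kinase, are used to drive this line towards a neuronal state, and transcripts measured after days of treatment report a settled level and not the first response.

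Immediate early genes are known to be switched on through serum response factor, which binds CArG boxes. The stretches of 250 bases before the RefSeq transcription start (GRCh38.p14) are shown for EGR1 and PHLDA1, which separated the genotypes in opposite directions. DUSP4 also separated them, in the direction of PHLDA1, but no start was available for it. The EGR1 stretch is chr5:138465229-138465478 on the plus strand and the PHLDA1 stretch is chr12:76031777-76032026 on the minus strand. Both are printed 5′ to 3′ and capitals mark CArG boxes.
EGR1: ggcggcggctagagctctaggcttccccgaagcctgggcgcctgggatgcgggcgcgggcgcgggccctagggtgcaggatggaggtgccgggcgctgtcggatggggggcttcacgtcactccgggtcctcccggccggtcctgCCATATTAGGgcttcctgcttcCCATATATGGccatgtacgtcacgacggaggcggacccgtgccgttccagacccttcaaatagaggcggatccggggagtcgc
PHLDA1: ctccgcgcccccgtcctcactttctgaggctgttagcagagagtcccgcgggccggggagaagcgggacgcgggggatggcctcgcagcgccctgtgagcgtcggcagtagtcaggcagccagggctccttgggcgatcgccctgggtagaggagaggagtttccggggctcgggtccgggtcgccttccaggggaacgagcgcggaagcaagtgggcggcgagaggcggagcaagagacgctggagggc
The table of starts held 6 of the 10 members, with 8 starts in all, and none of DUSP4, DUSP5, ETV4 and ETV5. EGR1 had 2 CArG boxes, CCATATTAGG beginning 105 bases and CCATATATGG beginning 83 bases before the start, which do not overlap each other. The PHLDA1 window and those of the other matched members, FOS among them, held none. Bases further upstream were not searched, so that a box beyond the 250 bases would be missed. Such a box was in 407 of 35116 starts of the table (1.16%). The CRE TGACGTCA (1.65% of starts), the AP-1 site TGANTCA (6.57%) and the ETS site CCGGAAGT (3.42%), each searched on both strands, had no match in the members' windows. A match or its absence describes these letters only.

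Values are log2 intensities normalised by the authors. They carry no detection call, the number of arrays limits their precision, and the difference of a dim gene is likely to be understated. Fold changes are log2 differences with the standard error (SE) of a limma fit over all 21 arrays, and a gene is called at a Benjamini-Hochberg adjusted p under 0.05 among all 18132 genes. The p-values measure the spread between these arrays, which the series describes as coming from 3 independent experiments. Title numbers fall into 3 runs with 1 array of each group, and arrays of the same run deviated from their group means together. Counts of called members with the run as a block are therefore given where they differ by more than 1.5 times. For the other gene lists, the markers and all genes, such counts are given only in part. Array medians lay between 7.88 and 8.03. On the mean of all arrays, 6 of 7 measured noradrenergic neuroblastoma markers were brighter than the median gene. Among them were DBH at 13.2, HAND2 at 12.7 and PHOX2A at 12.2, while TH, at 8.22, was dimmer. Of 8 measured mesenchymal markers, 5 were brighter, among them FN1 and TWIST1 at 12.6 and VIM at 12.4, and 3 dimmer. Of 4 measured Schwann or glial markers, 1 was brighter and 3 dimmer. All 5 measured immune and all 5 measured epithelial markers were dimmer. In total RNA of a culture, fewer expressing cells and less transcript per cell cannot be told apart.

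The members differed widely in level. Over the 21 arrays the mean was 12.01 for ETV5, 11.79 for SPRY4, 11.47 for EGR1, 11.43 for DUSP6, 11.04 for ETV4 and 10.86 for PHLDA1, each brighter than at least 80.6% of genes. SPRY2 averaged 9.97 and DUSP4 9.83, while DUSP5 at 7.46 and FOS at 7.34 lay below the median gene. These probe set intensities do not rank the amounts of different transcripts. The group means of PHLDA1 spanned 2.12 on the log2 scale, a wider range than that of 99.4% of genes, with the highest mean in APP_DMSO and the lowest in WT_DMSO. EGR1 spanned 1.57, DUSP5 1.12, DUSP4 1.10 and SPRY2 1.00. DUSP6 (0.35), FOS (0.32) and ETV5 (0.30) spanned the least, against a pooled SD within groups of 0.20, 0.16 and 0.11.

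**Figure D1:**
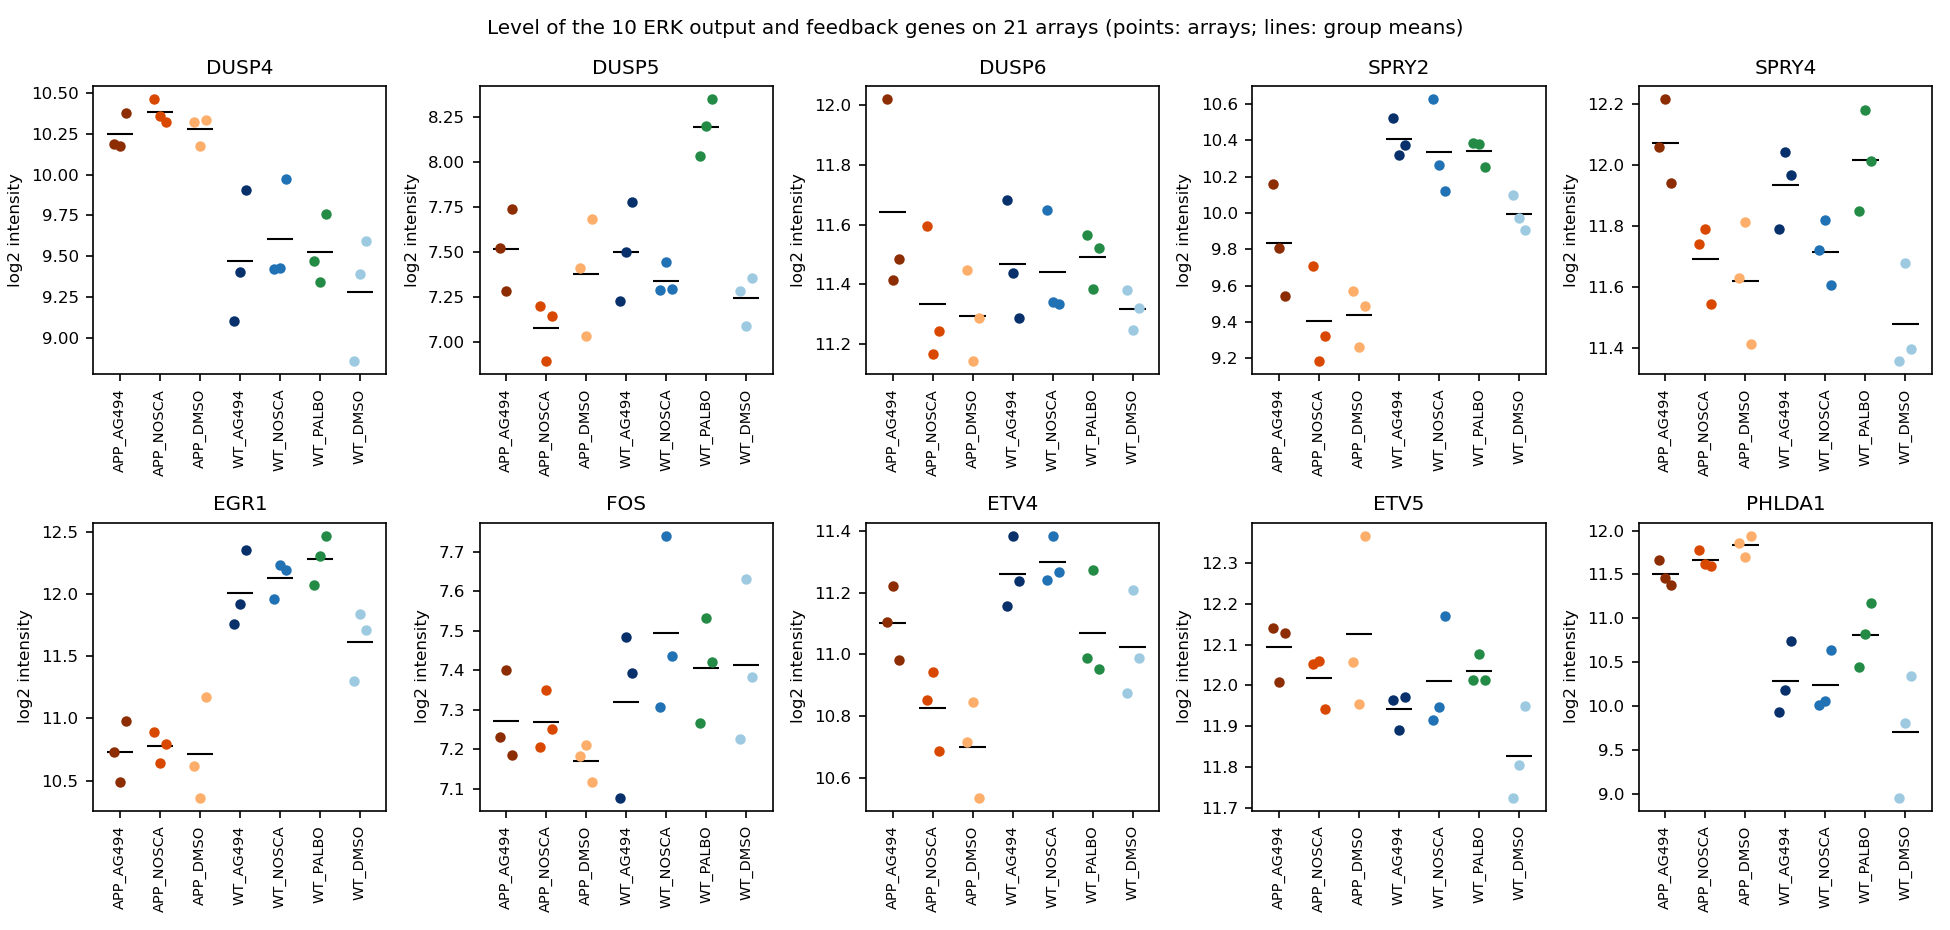
Log2 intensity of each member (y axis, a scale of its own in each panel) on 3 arrays of each of the 7 groups (x axis); points are arrays and lines group means. DUSP4 and PHLDA1 are higher on all 9 APP arrays than on any of the 12 WT arrays, EGR1 is lower on all 9, and DUSP5 stands out in WT_PALBO at 8.03 to 8.35.

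Under vehicle, APP_DMSO set against WT_DMSO shows what separates the mutated from the wild-type line. PHLDA1 rose 4.35-fold and DUSP4 rose 1.99-fold, whereas EGR1 and SPRY2 fell, so that feedback regulators were found on both sides. The members called were 4 of 10, against 9.25% of all genes, with 2 higher (5.2% of all genes) and 2 lower (4.05%). The same 4 were called after renewed quantile normalisation, although the 942 higher and 735 lower genes of the whole array then became 765 and 878. Their median log2 fold change was 0.05, beside 0.02 over all genes, since rises and falls balanced. With the run as a block, 7 members were called, against 17.4% of all genes. The arrays of APP_DMSO and WT_DMSO did not overlap for 7 members, a separation found in 22.1% of all genes, with 3 of them higher (13% of all genes) and 4 lower (9.18%).

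Among the member phosphatases, which inactivate MAP kinases, DUSP4 differed, and DUSP5 and DUSP6 did not pass the test. DUSP4, a nuclear enzyme, was at 10.32, 10.18 and 10.33 on the APP_DMSO arrays, against 8.86, 9.39 and 9.60 on the WT_DMSO arrays. The groups were clearly apart, and WT_DMSO replicate 1 was the lowest array. The log2 fold change was 0.99 (SE 0.19, adjusted p = 0.002). DUSP5, also nuclear and selective for ERK, was at 7.41, 7.03 and 7.68 in APP_DMSO, against 7.28, 7.09 and 7.35 in WT_DMSO, and these arrays overlapped. Its difference of 0.13 had a 95% confidence interval from -0.20 to 0.46 (adjusted p = 0.73). DUSP6, the cytoplasmic phosphatase of ERK, gave 11.45, 11.14 and 11.29 in APP_DMSO, against 11.38, 11.25 and 11.32 in WT_DMSO, likewise interleaved. Its difference was -0.02 (interval -0.34 to 0.29, adjusted p = 0.96).

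The Sprouty genes, whose products restrain signalling from receptor tyrosine kinases, parted in the same way. SPRY2 was at 9.57, 9.26 and 9.49 in APP_DMSO, against 10.10, 9.97 and 9.91 in WT_DMSO, with no overlap. It fell by 0.55 on the log2 scale (SE 0.15, adjusted p = 0.027). This call was lost without WT_DMSO replicate 1 (adjusted p = 0.10) or 2 (0.064) and without APP_DMSO replicate 2 (0.12) or 3 (0.054). SPRY4 was at 11.63, 11.81 and 11.41 in APP_DMSO, against 11.36, 11.68 and 11.39 in WT_DMSO, an overlapping difference of 0.14 (interval -0.11 to 0.39, adjusted p = 0.59).

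Of the immediate early genes, EGR1, a zinc finger transcription factor induced by growth factors and neuronal activity, was at 10.62, 10.36 and 11.17 in APP_DMSO, against 11.30, 11.84 and 11.71 in WT_DMSO. Each APP_DMSO array lay below each WT_DMSO array, although APP_DMSO replicate 3 came close to the lowest of them. EGR1 fell by 0.90 on the log2 scale, 1.87-fold (SE 0.19, adjusted p = 0.0047), but with the spread taken from these 6 arrays alone its adjusted p was 0.056, and the mean of its probe sets gave -1.37. FOS, a subunit of the AP-1 factor, was dim, at 7.18, 7.21 and 7.12 in APP_DMSO, against 7.23, 7.63 and 7.38 in WT_DMSO. The difference of -0.24 (SE 0.12, adjusted p = 0.28) reached the threshold with the run as a block (adjusted p = 0.033).

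ETV4 and ETV5 encode related ETS factors of the PEA3 group that respond to growth factor signalling, and their values leaned in opposite directions. ETV4 was at 10.71, 10.84 and 10.54 in APP_DMSO, against 10.87, 11.21 and 10.99 in WT_DMSO. ETV5 was at 12.06, 11.95 and 12.37 in APP_DMSO, against 11.73, 11.80 and 11.95 in WT_DMSO. Neither gene's groups overlapped, though the lowest APP_DMSO array of ETV5 exceeded the highest WT_DMSO array by less than the printed digits, and the ETV4 difference of -0.33 (SE 0.11, adjusted p = 0.076) and the ETV5 difference of 0.30 (SE 0.09, adjusted p = 0.055) missed the threshold. With the run as a block both were called (adjusted p = 0.0014 for ETV4 and 0.018 for ETV5). ETV5 was also called without APP_DMSO replicate 2 (adjusted p = 0.022) and without WT_DMSO replicate 3 (0.035).

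PHLDA1, a protein with a pleckstrin homology-like domain that is linked to damped receptor and AKT signalling, showed the widest difference of the members. It was at 11.85, 11.70 and 11.94 in APP_DMSO, against 8.97, 9.82 and 10.35 in WT_DMSO. The APP_DMSO arrays were close together and the WT_DMSO arrays spread over more than a log2 unit, with replicate 1 the lowest. The log2 fold change was 2.12 (SE 0.27, adjusted p = 2.5e-05).

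Probe sets that were not chosen for a gene were compared with the chosen ones, with p-values adjusted over all probe sets. All 6 EGR1 probe sets were lower in APP_DMSO than in WT_DMSO and passed the threshold, with log2 fold changes of -2.05 to -0.90, and the chosen one, the brightest, showed the smallest of these differences. All 4 PHLDA1 probe sets were higher and called, with log2 fold changes of 2.12 to 2.86. The 4 DUSP6 probe sets stayed between -0.02 and 0.03. The 4 ETV5 probe sets were all positive (0.23 to 0.33, 1 called) and both ETV4 probe sets negative (-0.33 and -0.28). For FOS the chosen probe set was the brightest of 4, whose mean levels ran from 4.79 to 7.34. It gave -0.24, and the others ran from -0.54 to -0.01, none of them called. The 3 SPRY4 probe sets disagreed, at 0.14, 0.11 and -0.26.

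**Figure D2:**
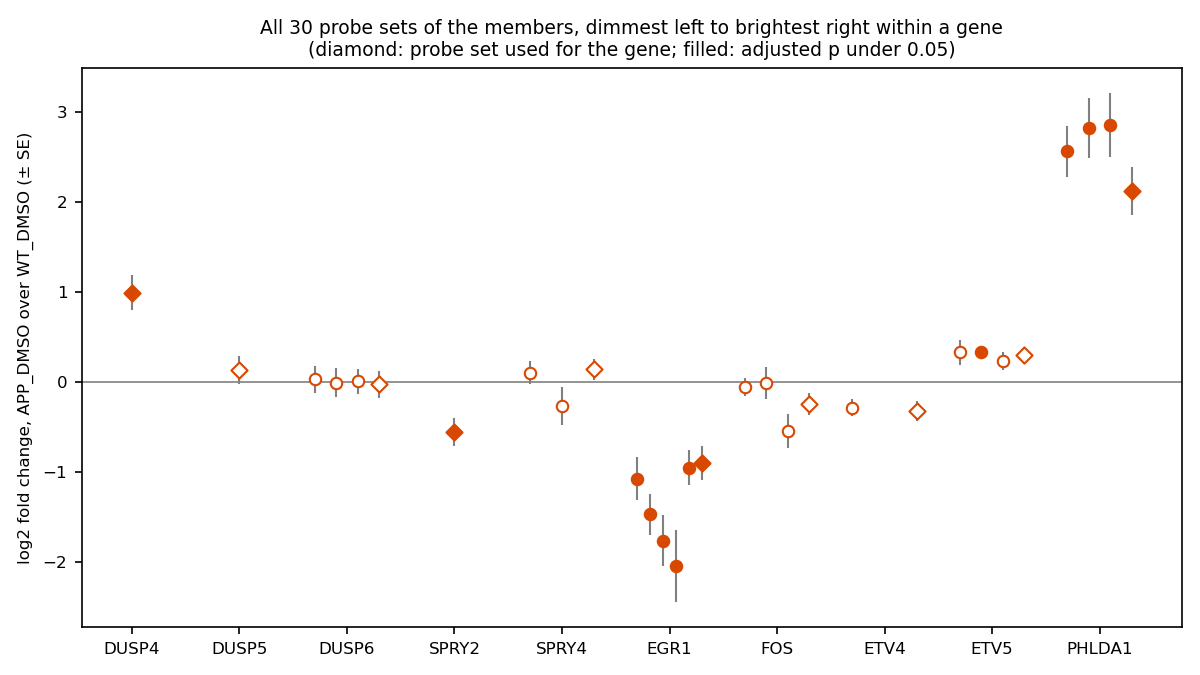
Log2 fold change of APP_DMSO over WT_DMSO (y axis, bars ± SE) for the 30 probe sets of the 10 members (x axis, dimmest to brightest within a gene). Diamonds are the probe sets used and filled symbols passed an adjusted p of 0.05; the 6 EGR1 probe sets lie between -2.05 and -0.90 and the 4 PHLDA1 probe sets between 2.12 and 2.86.

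The genotype was also compared under each compound, in arrays that the comparison under vehicle did not use, though in the same lines. Under AG494, 4 members were called (9.02% of all genes): DUSP4 rose by 0.78 (adjusted p = 0.013) and PHLDA1 by 1.22 (0.0057), and SPRY2 fell by 0.57 (0.022) and EGR1 by 1.28 (0.00019). Under NOSCA, 5 members were called (7.2% of all genes): DUSP4 rose by 0.77 (adjusted p = 0.017) and PHLDA1 by 1.42 (0.0018), and SPRY2 fell by 0.93 (0.00049), EGR1 by 1.35 (0.00011) and ETV4 by 0.47 (0.01). DUSP4, PHLDA1, SPRY2 and EGR1 were therefore called in the same direction in all 3 comparisons, 4 of 10 members, as were 682 of the 18132 genes (3.76%).

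On single arrays the separation was complete for 3 members. PHLDA1 lay between 11.38 and 11.94 on the 9 APP arrays, against 8.97 to 11.18 on the 12 WT arrays. DUSP4 lay between 10.18 and 10.46 on APP arrays, against 8.86 to 9.97 on WT arrays. EGR1 lay between 10.36 and 11.17 on APP arrays, against 11.30 to 12.47 on WT arrays. Such a separation of the 9 from the 12 arrays was seen in 3.1% of all genes. SPRY2 overlapped, with 9.18 to 10.16 on APP arrays, against 9.91 to 10.63 on WT arrays. Under AG494 the DUSP4 call was lost without WT_AG494 replicate 1 (adjusted p = 0.10) or 2 (0.052) or APP_AG494 replicate 3 (0.063), and the SPRY2 call without WT_AG494 replicate 1 (0.10) or APP_AG494 replicate 2 (0.072) or 3 (0.14) and, at 0.0503, with the spread taken from these groups alone. Under NOSCA the DUSP4 call was lost without WT_NOSCA replicate 1 (0.077) or 2 (0.089) or APP_NOSCA replicate 1 (0.064), and the ETV4 call without WT_NOSCA replicate 2 (0.058) or APP_NOSCA replicate 3 (0.066).

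**Figure D3:**
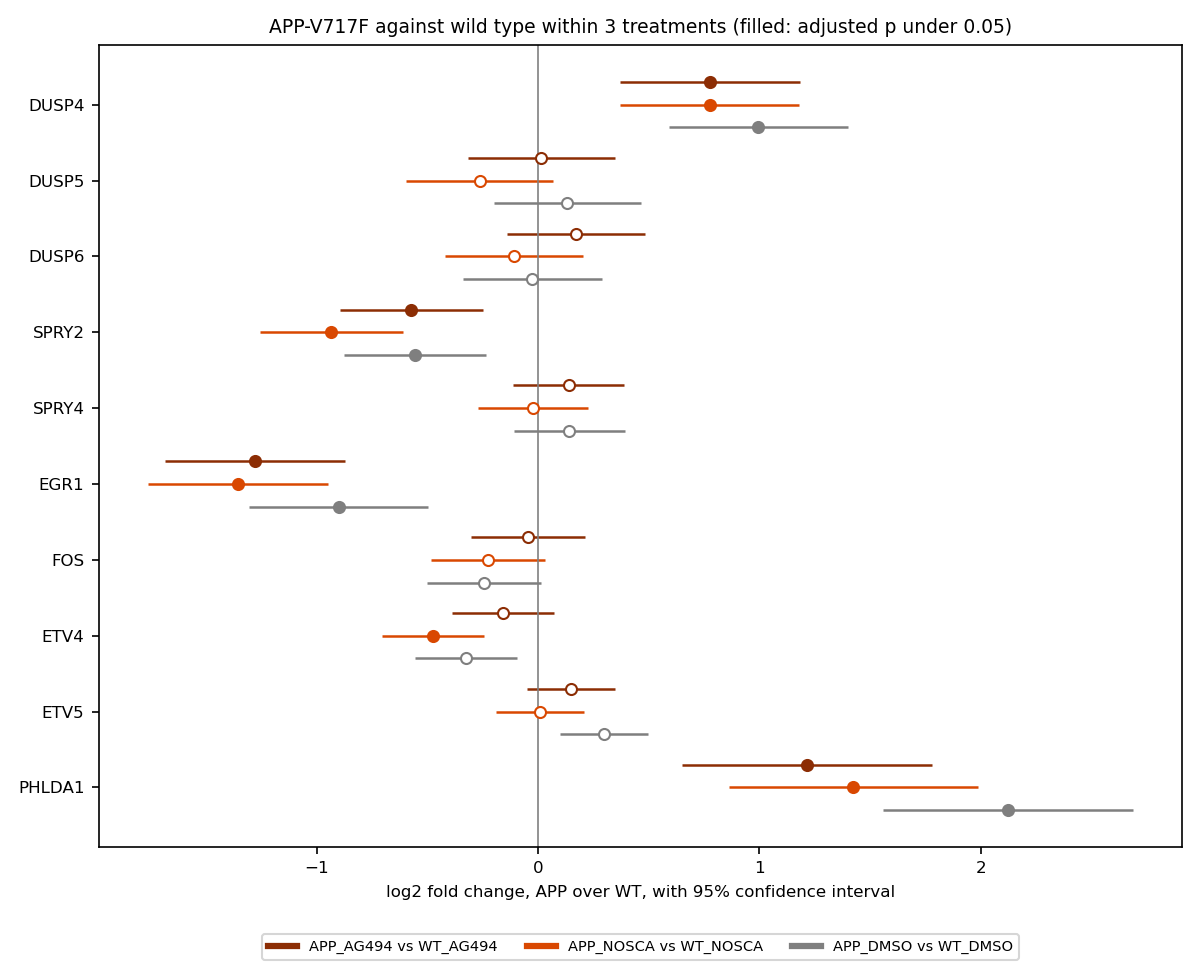
Log2 fold change of APP over WT cells (x axis) with 95% confidence intervals for each member (y axis), under AG494, NOSCA and DMSO, 3 arrays a group; filled symbols passed an adjusted p of 0.05. PHLDA1 lies at 1.22, 1.42 and 2.12, DUSP4 at 0.78, 0.77 and 0.99, EGR1 at -1.28, -1.35 and -0.90, and SPRY2 at -0.57, -0.93 and -0.55.

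Other genes known to be induced through ERK also moved both ways. Of 32 measured members of a list of 33, 2 were higher and 4 lower in APP_DMSO than in WT_DMSO (3 higher and 7 lower with the run as a block), with a median of -0.09 beside 0.02 over all genes. MYC, the growth-promoting transcription factor, averaged 7.68 in APP_DMSO and 9.16 in WT_DMSO, a fall of 1.48 (SE 0.26, adjusted p = 0.00066). DUSP7, a cytoplasmic ERK phosphatase, fell by 1.19 and DUSP2, a nuclear one that was dim at 6.07 in APP_DMSO and 7.13 in WT_DMSO, fell by 1.05. ATF3, a transcription factor of the stress response, rose by 1.11, at 10.54 in APP_DMSO and 9.43 in WT_DMSO. Under AG494 the same list had 1 gene higher and 3 lower: MYC fell by 2.33, DUSP2 by 0.73 and the cyclin gene CCND1 by 0.20, and ATF3 rose by 0.98. Under NOSCA it had 2 higher and 3 lower, and MYC fell by 2.12, the AP-1 subunit JUNB fell by 0.78, ATF3 rose by 0.98 and the ETS factor ETV1 rose by 0.60. The AG494 and NOSCA counts were 2 higher and 8 lower, and 3 higher and 9 lower, with the run as a block. Of all genes, 9.25% were called under vehicle, 9.02% under AG494 and 7.2% under NOSCA. With the run as a block these shares were 17.4%, 16.9% and 14.8%.

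The genes of the cascade itself were called about as often as all genes under vehicle. Of 25 measured members of a list of 31, covering adaptors, RAS regulators, kinases and ERK substrates, 1 was higher and 1 lower in APP_DMSO than in WT_DMSO, against 9.25% of all genes called, and 3 each with the run as a block, against 17.4%, with a median of 0.03 beside 0.02 over all genes. ELK3, a ternary complex factor that binds beside serum response factor, averaged 10.02 in APP_DMSO and 10.69 in WT_DMSO, a fall of 0.67 (adjusted p = 0.00017). SOS2, an exchange factor for RAS, rose by 0.27 (adjusted p = 0.032). ELK3 was lower as well under AG494 (-0.33, adjusted p = 0.0498) and NOSCA (-0.62, adjusted p = 0.00048), where MKNK1, a kinase downstream of ERK, was higher by 0.33 and 0.43. Some markers of cell types differed along with the genotype. Of 8 measured mesenchymal markers, SNAI2 (-1.15), VIM (-0.36) and YAP1 (-0.48) were lower and DCN (1.55) higher in APP_DMSO than in WT_DMSO, and the mean level of the list was 9.37 to 9.39 on APP_DMSO arrays, against 9.30 to 9.68 on WT_DMSO arrays. Of 7 measured noradrenergic markers, DBH (-0.31) was lower and 6 were not called, with a list median of -0.04. Of 4 measured glial markers, S100B (-1.01) was lower and 3 were not called, with a list median of -0.16. The part of such cell states in the members' differences was not tested.

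PALBO was given to wild-type cells and compared with vehicle. DUSP5, SPRY4, EGR1 and PHLDA1 rose and no member fell: 4 of 10 were called higher, against 3.11% of all genes called higher (6.98% called in either direction). The members' median was 0.29, beside 0.00 over all genes. WT_PALBO lay above WT_DMSO without overlap for 7 members, as in 10.7% of all genes.

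DUSP5 was at 8.03, 8.20 and 8.35 in WT_PALBO, against 7.28, 7.09 and 7.35 in WT_DMSO, and no array of any other group exceeded 7.77. The gap was wide against the spread within groups. DUSP5 rose by 0.95 (SE 0.16, 1.93-fold, adjusted p = 0.00082), by 0.75 to 1.11 within the 3 runs, and was called whichever single array of the pair of groups was left out (adjusted p = 0.0019 to 0.007). It was called as well with the spread taken from these groups alone, where it was the single member called. In that fit 518 of all genes were called in place of 1265.

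SPRY4 was at 11.85, 12.18 and 12.01 in WT_PALBO, against 11.36, 11.68 and 11.39 in WT_DMSO. It rose by 0.54 (SE 0.12, adjusted p = 0.0078), within each run by 0.49 to 0.62, but its dimmer probe sets disagreed (0.46 and -0.69), and the mean of the 3 gave 0.10 (adjusted p = 0.71). Without WT_PALBO replicate 2 the adjusted p was 0.052. EGR1 was at 12.08, 12.30 and 12.47 in WT_PALBO, against 11.30, 11.84 and 11.71 in WT_DMSO, a rise of 0.67 (SE 0.19, adjusted p = 0.043). All 6 EGR1 probe sets were positive (0.29 to 0.69, 2 called), and the adjusted p of their mean was 0.18. Its call was lost without WT_DMSO replicate 1 (adjusted p = 0.20) or 3 (0.064) or WT_PALBO replicate 2 (0.12) or 3 (0.17). PHLDA1 was at 10.45, 10.82 and 11.18 in WT_PALBO, against 8.97, 9.82 and 10.35 in WT_DMSO, which just did not overlap. It rose by 1.11 (SE 0.27, adjusted p = 0.015), and its 4 probe sets ran from 0.86 to 1.51, with 3 called. Without the low WT_DMSO replicate 1 the difference was 0.74 (adjusted p = 0.086), and without WT_PALBO replicate 3 it was 0.93 (adjusted p = 0.087). With 1 of WT_DMSO replicate 1, WT_PALBO replicate 2 and WT_PALBO replicate 3 left out, 2 members were called in place of 4. Over all genes these fits called 916, 888 and 871 in place of 1265.

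Of the other ERK-induced genes, 1 of 32 changed with PALBO: PLAUR, the urokinase receptor, fell by 0.67 (adjusted p = 0.0049). Of the cascade genes, MKNK2, which acts downstream of ERK, rose by 0.42 (adjusted p = 0.0095). With the run as a block 4 were higher and 3 lower in the induced list, and 4 higher and 1 lower in the cascade list. In that setting 15.1% of all genes were called. Mesenchymal markers moved with PALBO too: 3 of 8 were lower and none higher (YAP1 -0.93, FN1 -0.43 and VIM -0.41), and the mean level of the list was 9.06 to 9.33 on WT_PALBO arrays, against 9.30 to 9.68 on WT_DMSO arrays. Of 4 measured glial markers, S100B was higher by 0.95 and 3 were not called (list median -0.006). Of 7 measured noradrenergic markers, ISL1 was higher by 0.43 and 6 were not called (list median 0.02). Their part in the members' rises was not tested.

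AG494 in APP cells raised SPRY4 and ETV4, 2 of 10 members, against 4.75% of all genes called and 1.99% called higher. SPRY4 was at 12.06, 12.22 and 11.94 in APP_AG494, against 11.63, 11.81 and 11.41 in APP_DMSO, a rise of 0.45 (SE 0.12, adjusted p = 0.033). ETV4 was at 11.11, 11.22 and 10.98 in APP_AG494, against 10.71, 10.84 and 10.54 in APP_DMSO, a rise of 0.40 (SE 0.11, adjusted p = 0.039). Neither gene's groups overlapped, nor did those of PHLDA1, at 11.67, 11.47 and 11.38 in APP_AG494, against 11.85, 11.70 and 11.94 in APP_DMSO (-0.33, adjusted p = 0.65), a total of 3 members, as in 20% of all genes. Both rises were even across runs, at 0.40 to 0.53 for SPRY4 and 0.38 to 0.45 for ETV4. With the run as a block 4 members were called (11.8% of all genes), SPRY4 (adjusted p = 0.00073), ETV4 (0.00044), DUSP6 (0.35, 0.012) and SPRY2 (0.40, 0.014). DUSP6 was at 12.02, 11.42 and 11.49 in APP_AG494, against 11.45, 11.14 and 11.29 in APP_DMSO. These arrays overlapped, and its 4 probe sets were all positive (0.35 to 0.45). The calls of SPRY4 and ETV4 were lost when any of APP_DMSO replicates 1 and 3 and APP_AG494 replicates 1 and 2 was left out (adjusted p = 0.071 to 0.21), and with the spread taken from these groups alone (0.10 for both). The mean of its probe sets gave SPRY4 0.33 (adjusted p = 0.077). Among the other ERK-induced genes EPHA2, an ephrin receptor kinase, rose by 0.80 (adjusted p = 0.0023), with 3 higher and 1 lower in the list with the run as a block. Among 5 measured immune markers, CD68, at 7.76 to 8.67 over the 21 arrays, rose by 0.52. The mean level of the list was 5.96 to 6.01 on APP_AG494 arrays, against 5.91 to 5.98 on APP_DMSO arrays, and its part in the members' rises was not tested.

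AG494 in wild-type cells gave no called member, against 0.254% of all genes. At an unadjusted p under 0.05 there were 4 members, against 8.13% of all genes. SPRY4 was at 11.79, 12.04 and 11.97 in WT_AG494, against 11.36, 11.68 and 11.39 in WT_DMSO, a difference of 0.46 (interval 0.21 to 0.70, adjusted p = 0.15). SPRY2 was at 10.52, 10.32 and 10.38 in WT_AG494, against 10.10, 9.97 and 9.91 in WT_DMSO, a difference of 0.41 (interval 0.09 to 0.73, adjusted p = 0.39). These were the only members whose arrays did not overlap (11.3% of all genes), and with the run as a block both were called (adjusted p = 0.0045 for SPRY4 and 0.041 for SPRY2; 1.97% of all genes).

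With NOSCA no member was called in either genotype. In APP cells 0 of 18132 genes were called by limma (0% of genes; 959, or 5.29%, had an unadjusted p under 0.05, none of them a member), and the members' values ran from -0.30 for DUSP5 to 0.13 for ETV4. In wild-type cells 0.0165% of genes were called and no member, with 3 members at an unadjusted p under 0.05, against 6.91% of all genes. All 10 members had positive differences between WT_NOSCA and WT_DMSO, from 0.08 to 0.53, led by PHLDA1 (0.53, interval -0.03 to 1.09) and EGR1 (0.51, interval 0.11 to 0.92). The arrays did not overlap for SPRY2, EGR1 and ETV4, 3 members, as in 9.72% of all genes. The members' medians in wild-type cells were 0.25 with AG494, 0.26 with NOSCA and 0.29 with PALBO, beside -0.01, 0.01 and 0.00 over all genes, and 9, 10 and 9 of them were positive. These comparisons share the WT_DMSO arrays, of which replicate 1 held the lowest DUSP4, EGR1 and PHLDA1 values. In APP cells the medians were 0.12 with AG494 and 0.05 with NOSCA, which share the APP_DMSO arrays.

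**Figure D4:**
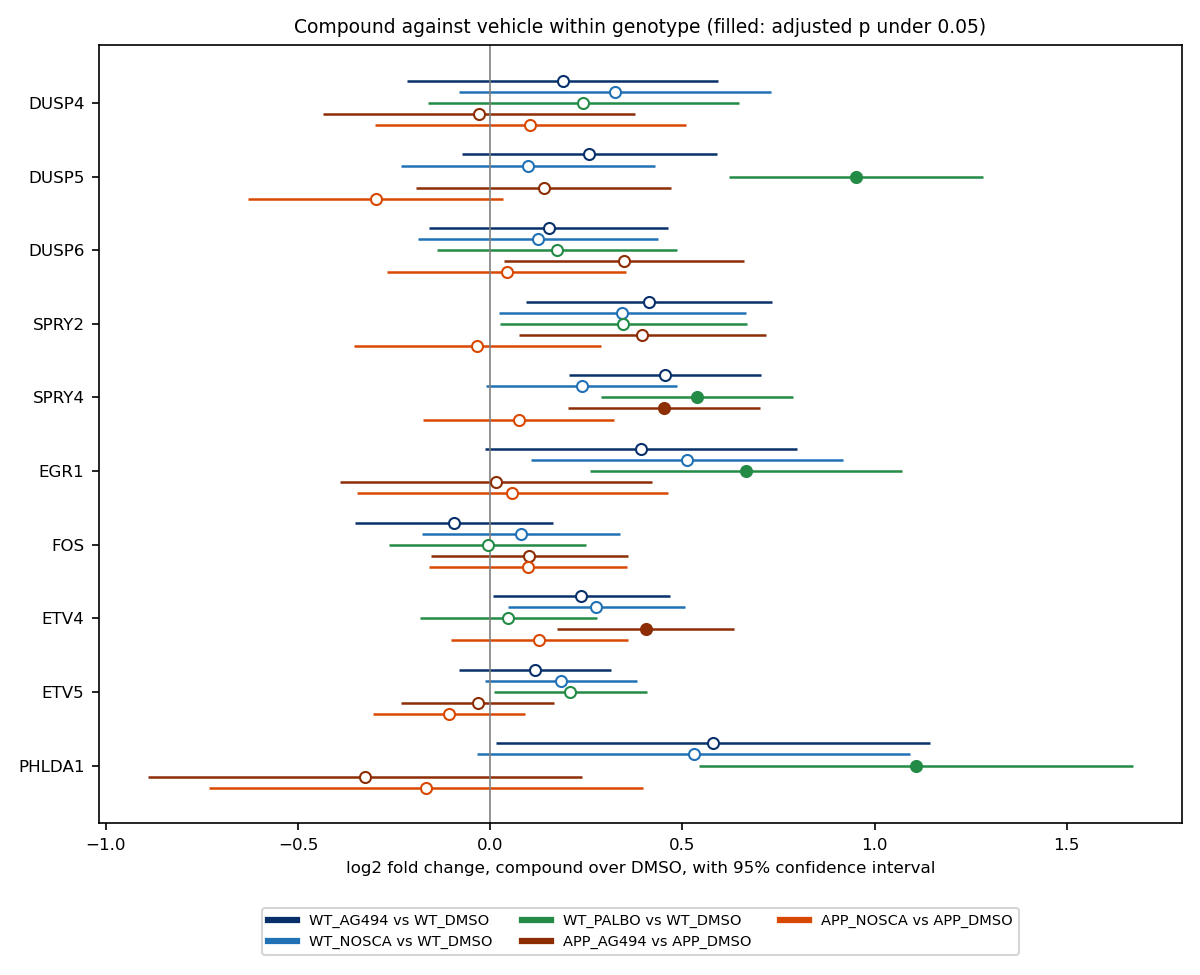
Log2 fold change of each compound over DMSO within its genotype (x axis) with 95% confidence intervals for each member (y axis), 3 arrays a group; filled symbols passed an adjusted p of 0.05. With PALBO, DUSP5 is at 0.95, SPRY4 at 0.54, EGR1 at 0.67 and PHLDA1 at 1.11; with AG494 in APP cells SPRY4 is at 0.45 and ETV4 at 0.40.

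Whether a compound acted differently in the 2 genotypes was tested as an interaction. No member passed for AG494, where 0.0386% of all genes did, or for NOSCA, where 0% did. With the run as a block none passed either, where 1.26% of all genes did for AG494 and 0.0165% for NOSCA. Without the block, 1 member each had an unadjusted p under 0.05, as did 7.53% of all genes for AG494 and 4.94% for NOSCA. The AG494 responses of SPRY4 were 0.45 in APP cells and 0.46 in WT cells, a difference with an interval of -0.36 to 0.35. PHLDA1 had -0.33 in APP cells and 0.58 in WT cells with AG494, a difference of -0.91 (SE 0.38, interval -1.70 to -0.11, adjusted p = 0.58). ETV5 had -0.11 in APP cells and 0.18 in WT cells with NOSCA, a difference of -0.29 (interval -0.57 to -0.01, adjusted p = 1).

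Compounds were also compared with each other within a genotype, at doses the labels do not give. DUSP5 was higher in WT_PALBO than in WT_AG494 (0.69, SE 0.16, adjusted p = 0.017; 3.25% of all genes called) and than in WT_NOSCA (0.85, SE 0.16, adjusted p = 0.0041; 3.23% of all genes called), and it was the single member called in each. The call against AG494 was lost without WT_AG494 replicate 1 (adjusted p = 0.12) or 2 (0.06) or WT_PALBO replicate 2 (0.058) or 3 (0.10), while that against NOSCA held without any single array (adjusted p up to 0.03). With the run as a block SPRY4 was also higher (0.30, adjusted p = 0.019) and ETV4 lower (-0.23, adjusted p = 0.035) in WT_PALBO than in WT_NOSCA, where 7.23% of all genes were called. No member was called between WT_AG494 and WT_NOSCA (0.011% of all genes called), and no member had an unadjusted p under 0.05, against 3.93% of all genes. Between APP_AG494 and APP_NOSCA none was called either (1.56% of all genes), and 4 members had an unadjusted p under 0.05, against 10.9% of all genes, but with the run as a block DUSP6 (0.31, adjusted p = 0.044), SPRY2 (0.43, 0.016), SPRY4 (0.38, 0.0058) and ETV4 (0.28, 0.014) were higher in APP_AG494, where 5.61% of all genes were called.

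The members did not vary as 1 unit. Over the 21 arrays, which share lines, vehicle groups and runs, 29 of the 45 pairs of members correlated positively and 16 negatively. The closest pair was DUSP4 and PHLDA1 (Pearson r = 0.93 over 21 arrays), both of them higher on all APP arrays than on any WT array. Their deviations from the group means also went together (r = 0.88). SPRY2 and EGR1 correlated over the 21 arrays (r = 0.80) and over the 7 group means (r = 0.93) but not among the arrays within groups (r = -0.14). EGR1 and PHLDA1 ran opposite over the 21 arrays (r = -0.61), where the genotypes part them, and together within groups (r = 0.63). SPRY4 and ETV4 were close within groups (r = 0.93), as were DUSP6 and SPRY2 (r = 0.85). The genes of each pair also shared shifts between runs. Arrays of run 2 lay above their group means by 0.15 for SPRY4 and 0.14 for ETV4 on average, and arrays of run 1 by 0.19 for both DUSP6 and SPRY2. Arrays of run 3 lay above their group means by 0.25 for PHLDA1, 0.21 for DUSP4 and 0.20 for EGR1 on average, and the mean deviations of run 1 were -0.20, -0.14 and -0.13.

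**Figure D5:**
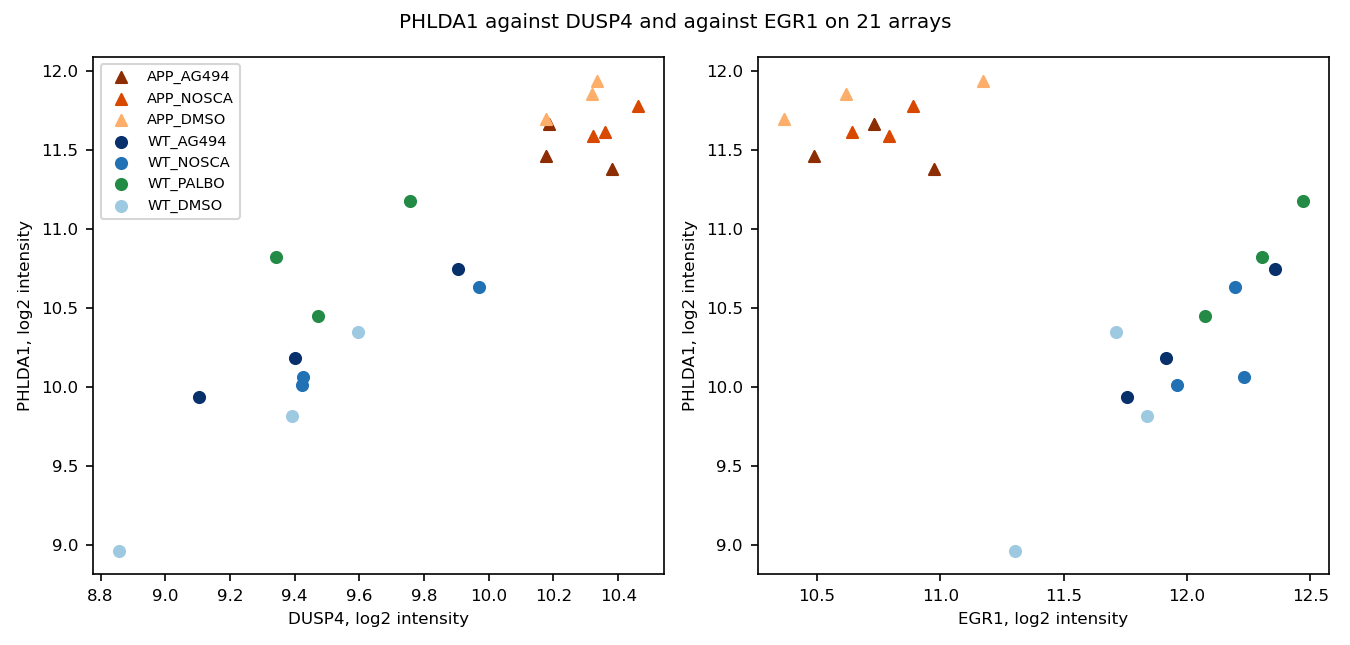
PHLDA1 (y axes, log2 intensity) against DUSP4 (left) and EGR1 (right) on the 21 arrays; triangles are APP arrays, circles WT arrays. PHLDA1 and DUSP4 correlate over the 21 arrays (r = 0.93). In both panels the 9 APP arrays form a group of their own at high PHLDA1 (11.38 to 11.94). They lie at high DUSP4 (10.18 to 10.46) on the left and at low EGR1 (10.36 to 11.17) on the right.

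The genes most like EGR1 over the 21 arrays were ARHGEF4, DNAJC15 and TMEM204 (r = 0.94 each), and those most like DUSP6 were RAB5A (r = 0.87), SEC63 (r = 0.85) and ARL2BP (r = 0.85). The arrays share lines and runs, and these values describe likeness of pattern only.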

How the data were processed

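Total RNA of 21 SH-SY5Y cultures was hybridised to PrimeView arrays. The deposited log2 intensities were used unchanged. The authors had applied RMA from the affy package, as the submitters' processing notes state without versions. Of 49372 probe sets, 79 controls were left out, 44988 had 1 gene symbol, 1832 several and 2473 were not listed in the platform annotation, and RefSeq recognised 44961 of the single symbols. Each gene was represented by its brightest probe set, on the mean of the 21 arrays. This left 18132 genes, among which 11734 had several probe sets. No dim gene was removed.

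The 14 contrasts were tested with lmFit and eBayes (limma 3.58.1, R 4.3.3; two-sided, Benjamini-Hochberg over all genes of a contrast). A single model over the 21 arrays had a mean for each group, with 14 residual and 4.27 prior degrees of freedom. The procedure was run on simulated data whose noise was independent between arrays, without runs. It therefore does not show how the calls behave where arrays of a run vary together. Replicates were numbered in submission order, which follows the runs of title numbers. Deviations from group means correlated by 0.23 to 0.68 within a run (63 pairs of arrays) and by -0.53 to 0.09 where both run and group differed (126 pairs), and 21 of 21 arrays had their closest partner in their own run. The runs therefore pair the arrays.

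All members are named in the genotype comparison and wherever called, with up to 4 called genes of each other list by size of change, and for EGR1 and DUSP6 the 3 most correlated genes. Members and lists were chosen with earlier results of these data known. Alternatives were the block, other ways to treat probe sets, dim genes, scaling and the prior, a fit on the compared groups alone, and each array left out. Promoter windows came from RefSeq, GRCh38.p14.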

Additional observations from a re-analysis of the deposited data

Results flagged for a closer look

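The response of PHLDA1 to AG494 went down in all 3 runs in APP cells and up in all 3 runs in WT cells. Within the runs APP_AG494 minus APP_DMSO was -0.19, -0.23 and -0.56, and WT_AG494 minus WT_DMSO was 0.97, 0.37 and 0.40, a difference between the genotypes of -0.91. The interaction test did not pass (adjusted p = 0.58). With the run as a block it did not pass either (adjusted p = 0.18), where 1.26% of all genes did. The response to NOSCA had the same signs, at -0.07, -0.08 and -0.35 in APP cells and 1.05, 0.25 and 0.29 in WT cells, a difference of -0.70 that did not pass either (adjusted p = 1). Both differences use the same vehicle arrays, APP_DMSO and WT_DMSO, and the largest response in WT cells came from the run of WT_DMSO replicate 1, the array with the lowest PHLDA1 level (8.97).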

How the results depend on the processing

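With the run as a replicate block, 7 members were called for the genotype under vehicle, 2 for AG494 in WT cells, 4 for AG494 in APP cells, 3 for PALBO against NOSCA and 4 for AG494 against NOSCA in APP cells; in the comparisons of single groups the block took no call away and, beyond SPRY2 with PALBO (adjusted p = 0.026), added no other among the members. With only the groups compared in the fit, 1 member was called for PALBO, 0 for AG494 in APP cells and 0 for PALBO against AG494. Over all genes the calls fell as well, from 1265 to 518, from 861 to 489 and from 589 to 293. With the mean of probe sets, 1 member was called for AG494 in APP cells, where 1154 genes were called in place of 861. Leaving out single arrays gave 3 to 5 called members for the genotype under vehicle, 0 to 0 for AG494 in WT cells, 2 to 4 for PALBO, 0 to 2 for AG494 in APP cells, 2 to 4 for the genotype under AG494, 3 to 5 under NOSCA, 0 to 1 for PALBO against AG494, 1 to 1 for PALBO against NOSCA and 0 to 0 for AG494 against NOSCA in APP cells. Over all genes such fits called 1197 to 1666 for the genotype under vehicle, 871 to 1184 for PALBO and 479 to 761 for AG494 in APP cells. They called 1078 to 1484 for the genotype under AG494, 860 to 1056 under NOSCA and 290 to 526 for PALBO against AG494. With all arrays the counts were 1677, 1265, 861, 1635, 1306 and 589 in this order. Uncalled genotype values under vehicle changed sign: DUSP5 ranged from -0.021 (without APP_DMSO replicate 3) to 0.30 and DUSP6 from -0.10 to 0.050 (without APP_DMSO replicate 2) when single arrays were left out, with 0.0073 for DUSP6 without WT_DMSO replicate 1. The mean of probe sets gave DUSP6 0.0016 and SPRY4 -0.0060. The genotype under vehicle called 942 genes higher and 735 lower; normalising by quantiles again gave 765 and 878, and centring on array medians 669 and 962. AG494 in APP cells gave 361 higher and 500 lower, 450 and 413 after quantiles, and 432 and 358 after centring. No called member changed its direction or lost its call under these scalings in the genotype, PALBO and APP_AG494 comparisons. The causes of these changes were not tested. With 3 arrays a group, small differences cannot be resolved, and the differences of the dim DUSP5 and FOS may be understated. For EGR1 and PHLDA1 the bright probe sets used gave the smallest genotype differences of their probe sets under vehicle.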

Other observations

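The following contrasts over several groups were chosen after seeing the data. Averaged over both genotypes, AG494 raised SPRY4 by 0.45 (adjusted p = 0.003), ETV4 by 0.32 (adjusted p = 0.02) and SPRY2 by 0.40 (adjusted p = 0.035), 3 of 10 members, against 5.24% of all genes called, with a median of 0.20 beside -0.01 over all genes. DUSP6 joined them with the run as a block (0.25, adjusted p = 0.011). The share of all genes called with the block was not counted for the averaged contrasts. Their block counts of members therefore have no share beside them. NOSCA averaged over both genotypes called no member and no gene (0%), with ETV4 at 0.20 (unadjusted p = 0.018). Averaged over DMSO, AG494 and NOSCA, DUSP4 rose by 0.85 and PHLDA1 by 1.59 in APP cells against WT cells, and SPRY2 fell by 0.69, EGR1 by 1.18 and ETV4 by 0.32, 5 of 10 members, against 22% of all genes called. FOS (-0.17, adjusted p = 0.0055) and ETV5 (0.15, adjusted p = 0.021) were called there as well with the run as a block, 7 members in all. DUSP5 (-0.04, interval -0.23 to 0.15), DUSP6 (0.01, interval -0.17 to 0.19) and SPRY4 (0.09, interval -0.06 to 0.23) were not called there.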
